A study of Mus musculus with 12 samples.

Results

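Neuromodulators are transmitters and lipids that tune how a neuron responds rather than drive it directly. Here 27 genes for their receptors were followed in fluorescent cells sorted from the cortex of the mouse embryo. By their markers these cells were not interneurons alone, as given below. The 27 are the genes, by symbol, of 17 receptor families that had a probe set annotated to a single gene on the array. They make up 27 of the 11358 genes measured in this way, and they were chosen with earlier results of these data known. Of the 17 families, 13 had a member: nicotinic acetylcholine (Chrna3, Chrna4, Chrna7, Chrnb2), lysophosphatidic acid (Lpar1, Lpar2, Lpar4, Lpar6), serotonin (Htr1a, Htr1d, Htr7, with Htr3a left out by the rule), sphingosine-1-phosphate (S1pr1, S1pr2, S1pr4), opioid and nociceptin (Oprl1, Oprm1), somatostatin (Sstr2, Sstr4), neuropeptide Y (Npy1r, Npy2r), ATP-gated P2X (P2rx4, P2rx7), P2Y (P2ry12), muscarinic (Chrm1), histamine (Hrh1), GABA-B (Gabbr1) and neurotensin (Ntsr1). Adrenergic, dopamine, adenosine and tachykinin receptors were in the rule but had no single-gene probe set in the deposited table, so they could not be followed.

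The arrays held RNA of fluorescent cells sorted from dissociated embryonic cortex, 3 arrays in each of 4 groups. MGE cells, from the medial ganglionic eminence (MGE), came from embryos that combined Nkx2-1-Cre Tg with R26R-YFP fl/fl, at E18.5 and at E14.5, and CGE cells, from the caudal and lateral ganglionic eminences, came from Nkx2-1-Cre;Dlx1-lox-Venus-lox embryos at E18.5 and at E16.5. All embryos thus carried Nkx2-1-Cre, which switches YFP on in the descendants of Nkx2-1-expressing cells in the MGE line and removes Venus from them in the CGE line. YFP marks every descendant of a cell that once had the Cre, whatever it has become, while Venus is read out through Dlx1, and embryos were pooled for each collection. The youngest groups differ in age by 2 days, so origin and age cannot be told apart in that comparison, and the reporter line differs with origin throughout.

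Most of these receptors have the 7-helix shape of G protein-coupled receptors and act through Gs, Gi, Gq or G12/13 proteins on cyclic AMP, calcium, potassium channels or the cytoskeleton. The nicotinic and P2X receptors are instead cation channels that open when acetylcholine or ATP binds. In the developing cortex, receptors of both kinds are present before most synapses form, and acetylcholine, serotonin, lysophospholipids and neuropeptides have been studied as signals for migrating or maturing interneurons. The groups were compared in 4 ways, first the E14.5 MGE cells against the E16.5 CGE cells (early lineage comparison), then MGE against CGE cells at E18.5 (late lineage comparison), and last E18.5 against the earlier day within MGE cells and within CGE cells (MGE and CGE maturation). In addition, the early lineage difference was subtracted from the late one, which gives the change of the lineage difference.

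Levels below are log2 array values, on which a difference of 1 is a 2-fold change. They are set side by side between arrays for 1 probe set at a time and never between genes, since probe sets differ in brightness. Most of the receptors were dim: 8 of the 27 passed a filter at the 40th percentile of the array (7.10 to 7.17) on at least 3 arrays, and 2, Chrnb2 and Gabbr1, lay above it on all 12. No detection calls were used, so that for a dim probe set it stays unknown whether its transcript was present, and its differences may be compressed. Within groups, arrays correlated with r between 0.972 and 0.995 over all probe sets. MGE E14.5 replicates 1 and 2 were the most alike (SD of their log2 differences 0.231, against 0.376 to 0.518 for the other pairs). Origin markers ran with the labels: Lhx6 averaged 12.62 in MGE and 10.65 in CGE cells at E18.5, and Sp8 averaged 4.54 in MGE and 12.02 in CGE cells at E18.5. Lhx6 was thus not absent from the cells sorted as CGE. The erythroid marker Hba-a2 averaged 12.54 and 12.74 in MGE cells at E18.5 and E14.5. In CGE cells it averaged 12.75 and 12.66 at E18.5 and E16.5. Summed on the linear scale, 6 pallial glutamatergic markers gave 4642 to 6067 units in MGE cells at E18.5 and 6604 to 7032 at E14.5. In CGE cells these markers gave 4603 to 6023 units at E18.5 and 5264 to 6175 at E16.5. Because these are bulk samples, fewer cells of a type and less RNA per cell cannot be told apart.

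For 25 of the 27 receptors, RefSeq promoter windows were at hand (36 windows, GRCm38.p6, 250 bases before to 50 after each start), and 5 are printed because their genes showed the contrasting patterns described next: P2rx7, Chrna4 and S1pr2 were highest in MGE cells at E18.5, Npy2r in MGE cells at E14.5 and Chrna7 in CGE cells at E16.5. Capitals mark matches on either strand to 6 strings that were searched on both strands: TAATTA as a homeodomain core, CAGCTG as one E-box and CAGATG as another, ACAAAG as one SOX-type string and ACAATG as another, and CCGCCC as the GC box. No 2 of the strings can match at the same start on a strand.
P2rx7, chr5:122643677-122643976, plus strand, first of its starts: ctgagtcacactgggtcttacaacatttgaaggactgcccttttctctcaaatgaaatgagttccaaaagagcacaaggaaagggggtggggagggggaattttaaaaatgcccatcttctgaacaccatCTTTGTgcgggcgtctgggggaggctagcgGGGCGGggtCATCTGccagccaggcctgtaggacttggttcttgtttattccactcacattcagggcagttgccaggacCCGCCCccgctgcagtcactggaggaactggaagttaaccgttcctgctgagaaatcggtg
Chrna4, chr2:181039128-181039427, minus strand: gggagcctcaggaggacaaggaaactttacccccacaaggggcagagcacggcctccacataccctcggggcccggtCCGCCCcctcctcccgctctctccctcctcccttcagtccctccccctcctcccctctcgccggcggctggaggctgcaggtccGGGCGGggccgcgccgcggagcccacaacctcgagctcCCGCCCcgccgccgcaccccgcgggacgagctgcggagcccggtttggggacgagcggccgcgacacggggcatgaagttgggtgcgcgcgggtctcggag
S1pr2, chr9:20976744-20977043, minus strand: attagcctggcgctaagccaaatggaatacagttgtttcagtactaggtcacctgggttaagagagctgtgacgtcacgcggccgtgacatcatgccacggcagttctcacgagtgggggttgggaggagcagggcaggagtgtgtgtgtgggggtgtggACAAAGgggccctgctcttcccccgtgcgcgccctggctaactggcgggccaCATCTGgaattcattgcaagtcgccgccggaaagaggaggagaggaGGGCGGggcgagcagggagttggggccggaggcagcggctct
Npy2r, chr3:82548036-82548335, minus strand: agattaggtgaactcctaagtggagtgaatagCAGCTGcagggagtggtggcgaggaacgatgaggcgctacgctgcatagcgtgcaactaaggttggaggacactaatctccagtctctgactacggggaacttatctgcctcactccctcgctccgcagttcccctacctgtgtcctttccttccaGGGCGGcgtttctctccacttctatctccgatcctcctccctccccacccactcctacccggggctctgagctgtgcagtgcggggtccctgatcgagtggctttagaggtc
Chrna7, chr7:63212477-63212776, minus strand: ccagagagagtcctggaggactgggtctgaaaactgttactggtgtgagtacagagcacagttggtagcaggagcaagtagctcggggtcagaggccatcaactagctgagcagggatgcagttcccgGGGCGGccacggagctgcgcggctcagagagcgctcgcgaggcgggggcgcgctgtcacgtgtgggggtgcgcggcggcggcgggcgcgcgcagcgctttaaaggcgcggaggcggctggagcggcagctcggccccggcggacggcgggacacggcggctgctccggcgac
The 3 promoters of genes that were highest in MGE cells at E18.5 differ widely in base composition. The P2rx7 window has 53.3% G and C with 8 CpG dinucleotides, the S1pr2 window 62.0% with 18 and the Chrna4 window 74.3% with 33, beside medians of 52.7% and 7 over all 32851 windows. The Npy2r window has 57.7% with 14, and the Chrna7 window 70.0% with 35. The GC box occurs in all 5 printed windows, in 52.8% of the receptor windows and in 35.7% of all windows. ACAAAG occurs in the P2rx7 and S1pr2 windows but not in that of Chrna4, in 27.8% of the receptor windows and in 18.7% of all. CAGATG is in 19.4% of the receptor windows against 17.2% of all, CAGCTG in 8.33% against 16.3%, ACAATG in 11.1% against 12.6% and TAATTA in 2.78% against 5.29%. These matches describe letters, and no binding was measured here.

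Set against the array as a whole, the early lineage comparison called 3 receptors higher in MGE cells (11.1%) and 4 lower (14.8%), beside 3.56% and 5.1% of all 11358 genes called in these directions. The median difference was -0.11 over the receptors and -0.03 over all genes. The late comparison called 6 higher (22.2%) and 2 lower (7.41%), beside 13.1% and 9.34% of all genes. At E18.5 the median was -0.07 over the receptors and -0.02 over all genes. Npy1r and Ntsr1 were called in both lineage comparisons. Over MGE maturation, 7 of the 27 were called higher at E18.5 and 5 lower, beside 12.1% and 8.17% of all genes, with medians of -0.07 over the receptors and -0.05 over all genes.

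**Figure D1:**
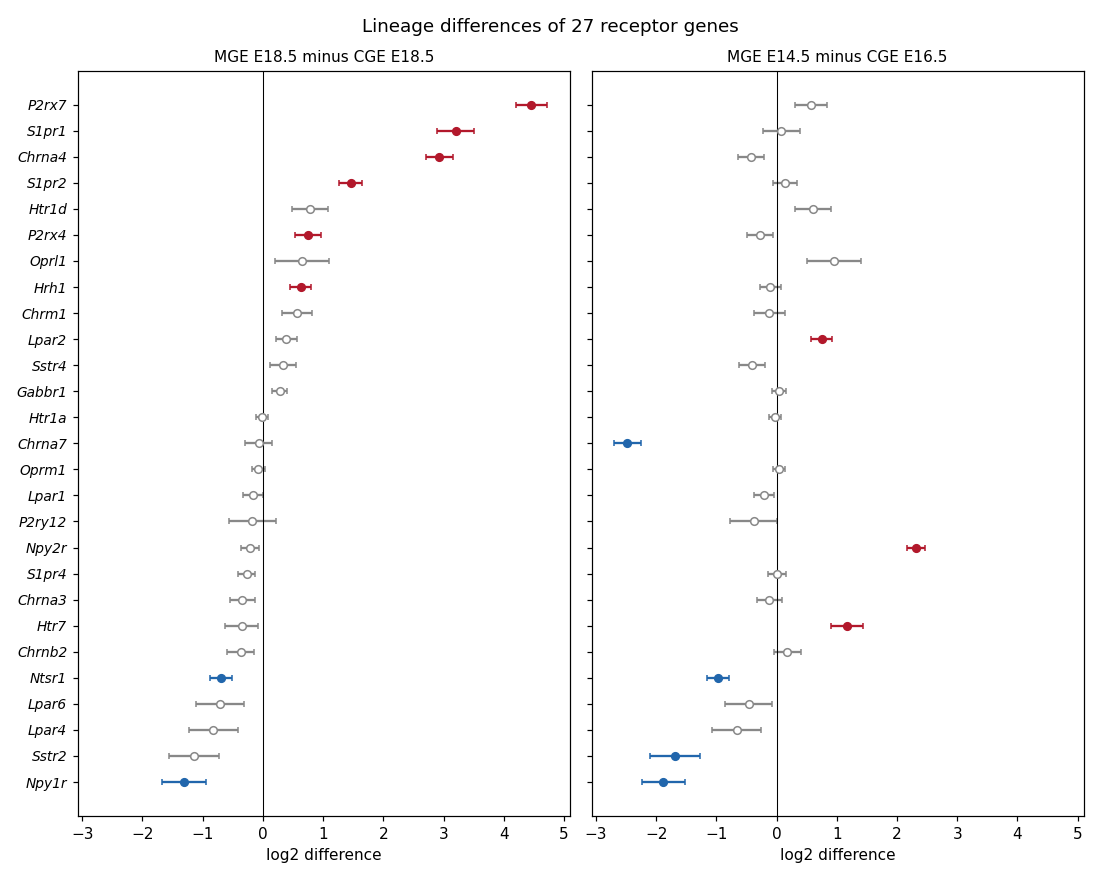
Log2 difference, MGE minus CGE, of each of the 27 receptors in the early and the late lineage comparison. Points are fitted differences and bars their standard errors; filled red points were called higher in MGE cells, filled blue points lower, and open grey points were not called. P2rx7 lies farthest to the right late (4.46) and Chrna7 farthest to the left early (-2.48).

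At E18.5, 4 receptors stood far above every other group in MGE cells: the ATP-gated channel P2rx7, the sphingosine-1-phosphate receptors S1pr1 and S1pr2 and the nicotinic subunit Chrna4. Each was higher than in CGE cells of the same day and higher than in MGE cells at E14.5, by 2.30- to 25.0-fold. P2rx4, Hrh1 and, against E14.5 alone, Chrm1 were also called higher, by under 2-fold.

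P2rx7 encodes a channel that opens at high extracellular ATP. It read 9.64, 9.44 and 10.03 in MGE cells at E18.5, against 5.32, 5.11 and 4.74 in MGE cells at E14.5, 4.64, 5.32 and 5.77 in CGE cells at E18.5 and 4.33, 4.43 and 4.69 in CGE cells at E16.5. The 3 MGE arrays at E18.5 lay well clear of the other 9. The difference was 4.46 ± 0.265 (SE) from CGE cells at E18.5 (22-fold, adjusted p = 3.89e-07) and 4.64 ± 0.265 from MGE cells at E14.5 (25.0-fold, adjusted p = 3.66e-07). In the early lineage comparison P2rx7 was not called (0.57, adjusted p = 0.246), though it was with array weights (0.72, adjusted p = 0.0266). All 3 probe sets of the gene were called in the late comparison, the other two by 4.48 and 2.60.

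S1pr1 encodes the Gi-coupled receptor for the lipid sphingosine-1-phosphate that is best known for guiding lymphocytes and shaping vessels. It read 7.53, 6.78 and 8.29 in MGE cells at E18.5, against 3.93, 4.05 and 4.10 in MGE cells at E14.5, 3.95, 4.70 and 4.36 in CGE cells at E18.5 and 3.74, 4.0 and 4.12 in CGE cells at E16.5. The 3 MGE arrays at E18.5 were again the highest, though they spread more widely than those of any other group. S1pr1 was 3.20 ± 0.31 above CGE cells at E18.5 (9.19-fold, adjusted p = 1.99e-05) and 3.51 ± 0.31 above MGE cells at E14.5 (11.4-fold, adjusted p = 1.13e-05). S1pr2, its relative that also couples to G12/13, read 7.21, 6.57 and 7.24 in MGE cells at E18.5, against 5.98, 5.81 and 5.61 in MGE cells at E14.5, 5.78, 5.42 and 5.44 in CGE cells at E18.5 and 5.53, 5.56 and 5.89 in CGE cells at E16.5. Its groups did not overlap between MGE cells at E18.5 and any other. The difference was smaller than for S1pr1, at 1.46 ± 0.20 against CGE cells at E18.5 (2.75-fold, adjusted p = 0.000229) and 1.20 ± 0.20 against MGE cells at E14.5 (2.30-fold, adjusted p = 0.00115). S1pr4, the only other receptor of this family with a single-gene probe set in the deposited table, was called nowhere, and its 4 group means spanned 0.27.

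Chrna4 encodes the alpha subunit that pairs with Chrnb2 in the main high-affinity nicotinic receptor of the brain. It read 8.47, 8.39 and 9.10 in MGE cells at E18.5, against 5.75, 5.80 and 6.22 in MGE cells at E14.5, 5.52, 5.66 and 5.98 in CGE cells at E18.5 and 6.10, 6.65 and 6.30 in CGE cells at E16.5. No MGE array at E18.5 overlapped another group. The difference was 2.93 ± 0.22 from CGE cells at E18.5 (7.62-fold, adjusted p = 2.63e-06) and 2.73 ± 0.22 from MGE cells at E14.5 (6.62-fold, adjusted p = 5.65e-06). Of its other probe sets, one was called with nearly the same differences (2.71 and 2.61) and one was not (0.24, adjusted p = 0.215, and 0.37, adjusted p = 0.0626). Its partner subunit Chrnb2 ran the other way over MGE maturation, as described below.

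**Figure D2:**
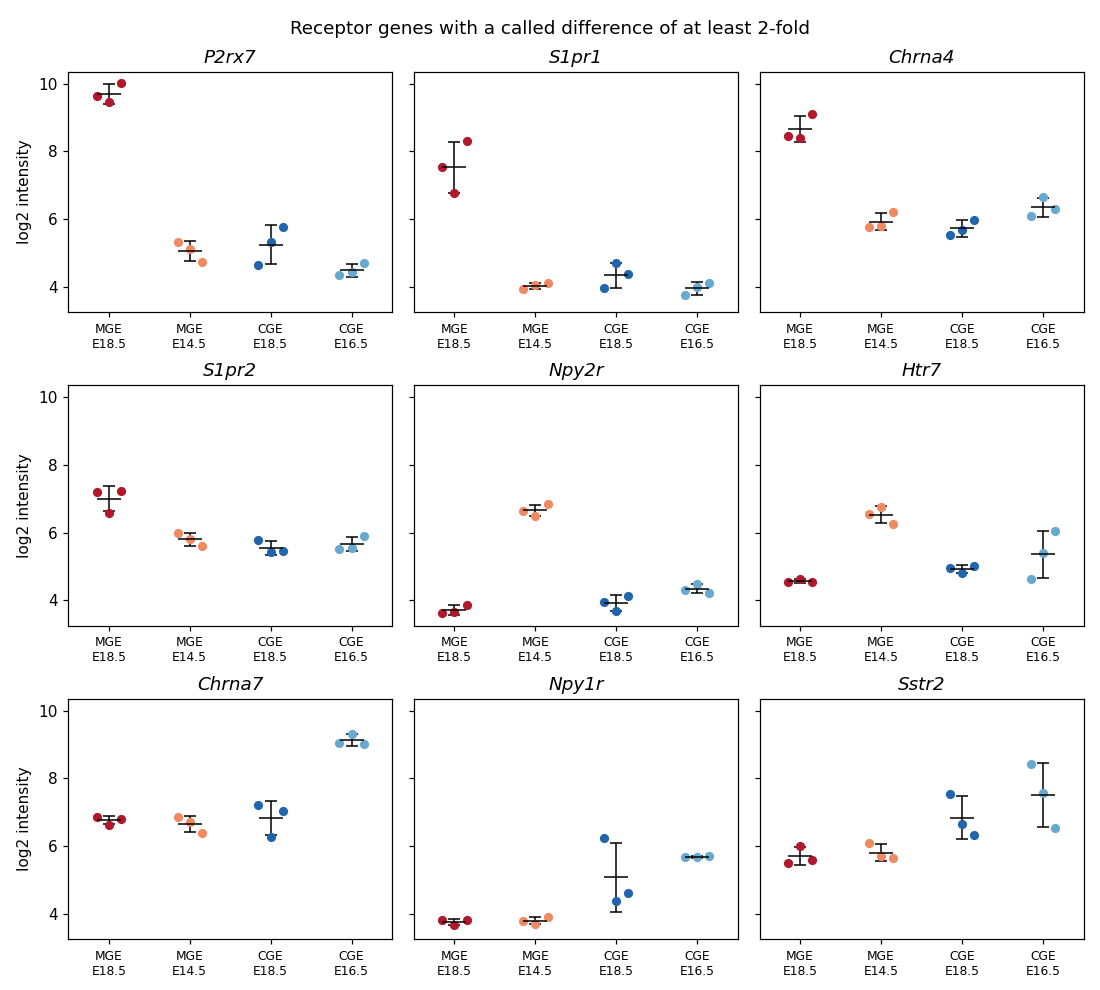
Log2 array values of the receptors with a called difference of at least 2-fold, 1 panel per gene, with the 4 groups on the horizontal axis. Points are arrays, dashes are means and bars are the SD of 3 arrays. P2rx7 lies between 9.44 and 10.03 in MGE cells at E18.5 and at most at 5.77 elsewhere, whereas Npy2r is highest in MGE cells at E14.5 and Chrna7 in CGE cells at E16.5.

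P2rx4, which lies next to P2rx7 on chromosome 5 and encodes a more ATP-sensitive channel, was 0.75 ± 0.21 higher in MGE than in CGE cells at E18.5 (adjusted p = 0.0261) and 0.83 ± 0.21 higher in MGE cells at E18.5 than at E14.5 (adjusted p = 0.0178). The Gq-coupled histamine receptor Hrh1 was 0.63 ± 0.17 higher in the late lineage comparison (adjusted p = 0.0222) and 0.83 ± 0.17 higher over MGE maturation (adjusted p = 0.00583). Chrm1, a Gq-coupled muscarinic receptor, was 0.77 ± 0.25 higher over MGE maturation, just inside the threshold (adjusted p = 0.0497). Of these 5 calls, that of Hrh1 over MGE maturation was kept in each of the 20 alternatives that tested it (adjusted p up to 0.0267), and the other 4 were each lost in at least 1. The Chrm1 call was lost in 13 of 20, among them quantile normalisation (0.74, adjusted p = 0.0634) and centring of the arrays on their medians (0.76, adjusted p = 0.0501). Without MGE E18.5 replicate 3, where P2rx4 and Chrm1 were highest, the MGE maturation difference was 0.59 for P2rx4 (adjusted p = 0.0661) and 0.47 for Chrm1 (adjusted p = 0.17). The Chrm1 call was lost too without any single MGE array of E14.5 (0.69 to 0.84), any of CGE cells at E16.5 or CGE E18.5 replicate 3 (0.77 each). The P2rx4 call over MGE maturation was lost also without MGE E14.5 replicate 1 or 3 (0.82 and 0.76). In the late comparison it was lost without MGE E18.5 replicate 1 or 3 or CGE E18.5 replicate 2 (0.75, 0.51 and 0.62), and the Hrh1 call without MGE E18.5 replicate 1 or CGE E18.5 replicate 1 or 2 (0.50, 0.61 and 0.55).

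Oligodendrocyte precursors are glia that arise in part from Nkx2-1-expressing progenitors, and their markers were measured beside these receptors. All 10 markers on the list were measured, and all 10 were higher in MGE cells at E18.5 than in CGE cells at E18.5 (median difference 5.80) and than in MGE cells at E14.5 (median 4.11). Their summed linear level was 19708 to 31471 array units in MGE cells at E18.5, 1427 to 1751 in MGE cells at E14.5, 363 to 575 in CGE cells at E18.5 and 360 to 476 in CGE cells at E16.5. The defining markers Pdgfra and Sox10 averaged 12.49 and 10.80 in MGE cells at E18.5, against 6.0 and 4.67 in CGE cells at E18.5. Among the MGE arrays at E18.5, replicate 3 had the highest sum of these markers and the highest P2rx7, S1pr1, S1pr2, Chrna4, P2rx4 and Chrm1, and replicate 2 had the lowest sum and the lowest values of the same 6 receptors. Hrh1 was highest in replicate 1 (5.17) and lowest in replicate 2 (4.75). Markers of radial glia and astrocytes summed to 24765 to 28912 units in MGE cells at E18.5, 10792 to 13297 in MGE cells at E14.5, 14709 to 18582 in CGE cells at E18.5 and 9853 to 13097 in CGE cells at E16.5. The 8 pan GABAergic genes ran lower in MGE cells at E18.5, 6 of them in the late lineage comparison and 7 over MGE maturation. The part of these other cells in the receptor differences was not tested.

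In MGE cells at E14.5, the neuropeptide Y receptor Npy2r and the serotonin receptor Htr7 were at their highest, and both were lower at E18.5. They were called higher than in CGE cells at E16.5, and so was the lysophosphatidic acid receptor Lpar2.

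Npy2r encodes a Gi-coupled receptor that often sits on axon terminals and restrains release. It read 3.62, 3.65 and 3.87 in MGE cells at E18.5 and 6.63, 6.50 and 6.83 in MGE cells at E14.5, against 3.96, 3.67 and 4.13 in CGE cells at E18.5 and 4.31, 4.49 and 4.22 in CGE cells at E16.5. The 3 MGE arrays at E14.5 were the only ones above 4.49. Npy2r was 2.31 ± 0.15 higher in MGE cells at E14.5 than in CGE cells at E16.5 (4.97-fold, adjusted p = 2.5e-06). In MGE cells at E18.5 it had fallen by 2.94 ± 0.15 relative to E14.5 (7.68-fold lower, adjusted p = 1.61e-07), the smallest adjusted p of any receptor. Its ligand gene Npy was 2.40 higher in the early lineage comparison as well.

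Htr7 encodes a Gs-coupled serotonin receptor. It read 4.55, 4.63 and 4.53 in MGE cells at E18.5 and 6.56, 6.75 and 6.26 in MGE cells at E14.5, against 4.94, 4.80 and 5.02 in CGE cells at E18.5 and 4.63, 5.39 and 6.04 in CGE cells at E16.5. The CGE arrays at E16.5 were spread over more than 1 log2 unit, with replicate 3 close to the MGE arrays of E14.5. Htr7 fell by 1.95 ± 0.27 over MGE maturation (3.87-fold lower, adjusted p = 0.000381). The early lineage difference was 1.17 ± 0.27 (2.25-fold, adjusted p = 0.0208), and this call was lost without MGE E14.5 replicate 1 or 2 or CGE E16.5 replicate 2 (1.15, 1.05 and 1.19, adjusted p up to 0.0886). The serotonin receptors Htr1a and Htr1d, both Gi-coupled, were called in no comparison.

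Lpar2, a receptor for lysophosphatidic acid, was 0.75 ± 0.17 higher in MGE cells at E14.5 than in CGE cells at E16.5 (adjusted p = 0.0179). That call was lost without MGE E14.5 replicate 2 or 3 or CGE E16.5 replicate 1 (0.78, 0.67 and 0.61, adjusted p up to 0.0728).

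In CGE cells, 4 receptors were higher than in MGE cells in 1 or both lineage comparisons: the nicotinic subunit Chrna7, the neuropeptide Y receptor Npy1r, the somatostatin receptor Sstr2 and the neurotensin receptor Ntsr1. The differences below are MGE minus CGE and so negative.

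Chrna7 encodes a nicotinic subunit that forms calcium-permeable channels on its own. It read 6.87, 6.63 and 6.80 in MGE cells at E18.5 and 6.85, 6.72 and 6.39 in MGE cells at E14.5, against 7.20, 6.26 and 7.05 in CGE cells at E18.5 and 9.06, 9.32 and 9.01 in CGE cells at E16.5. Only the CGE arrays of E16.5 stood apart, while both lineages overlapped at E18.5. The early difference was -2.48 ± 0.22 (5.57-fold lower in MGE cells, adjusted p = 3.3e-05), and CGE maturation gave -2.29 ± 0.22 (4.90-fold lower at E18.5, adjusted p = 0.000608). Its other probe set gave -1.92 and -1.77 and was called in both.

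Npy1r encodes the Gi-coupled neuropeptide Y receptor found mostly on cell bodies and dendrites. It read 3.81, 3.67 and 3.82 in MGE cells at E18.5 and 3.79, 3.69 and 3.90 in MGE cells at E14.5, against 6.24, 4.38 and 4.61 in CGE cells at E18.5 and 5.67, 5.67 and 5.70 in CGE cells at E16.5. All CGE arrays lay above all MGE arrays, with CGE E18.5 replicate 1 above the others of its group. The difference was -1.88 ± 0.36 early (adjusted p = 0.00665) and -1.31 ± 0.36 late (adjusted p = 0.0219). Without CGE E18.5 replicate 1 the late difference was -0.73 and stayed called (adjusted p = 0.00175), but the call was lost without any single MGE array of E18.5 (-1.34 to -1.26, adjusted p up to 0.0612). A second Npy1r probe set showed differences of 0.01 and 0.08 and was called in neither.

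Sstr2 encodes a Gi-coupled receptor for somatostatin, the peptide made by many MGE-derived interneurons. It read 5.51, 6.01 and 5.58 in MGE cells at E18.5 and 6.09, 5.69 and 5.65 in MGE cells at E14.5, against 7.55, 6.64 and 6.32 in CGE cells at E18.5 and 8.41, 7.56 and 6.54 in CGE cells at E16.5. Every CGE array was above every MGE array, and replicate 1 was the highest within each CGE group. The early difference was -1.70 ± 0.42 (3.24-fold lower in MGE cells, adjusted p = 0.0259). It was no longer called without MGE E14.5 replicate 1, 2 or 3 (-1.83, -1.64 and -1.62) or without CGE E16.5 replicate 1 or 2 (-1.24 and -1.67), with adjusted p up to 0.0895. The late Sstr2 difference was -1.14 ± 0.42 and not called (adjusted p = 0.0713). It was called with a replicate block (adjusted p = 0.0314), with only the compared groups fitted (0.0488) and without CGE E16.5 replicate 1 or 3 (0.0309 and 0.0254). Ntsr1, a Gq-coupled receptor for neurotensin, was lower in MGE cells, with a difference of -0.97 ± 0.185 in the early comparison (adjusted p = 0.00642) and of -0.70 ± 0.185 in the late one (adjusted p = 0.0179). The late call was lost without MGE E18.5 replicate 3 or CGE E18.5 replicate 3 (-0.60 and -0.55).

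Markers of striatal neurons and other cells of the lateral eminence were measured beside the receptors that were higher in CGE cells. Of the 7 on the list 5 were measured, with Meis2 and Foxp2 lower in MGE cells in the early comparison and Foxp1 as well in the late one. Their summed linear level was 954 to 1004 units in MGE cells at E18.5 and 506 to 569 in MGE cells at E14.5, against 4872 to 10189 in CGE cells at E18.5 and 1506 to 5215 in CGE cells at E16.5. Replicate 1 held the highest sum in both CGE groups, as it held the highest Sstr2. The part of these cells in the receptor differences was not tested.

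**Figure D3:**
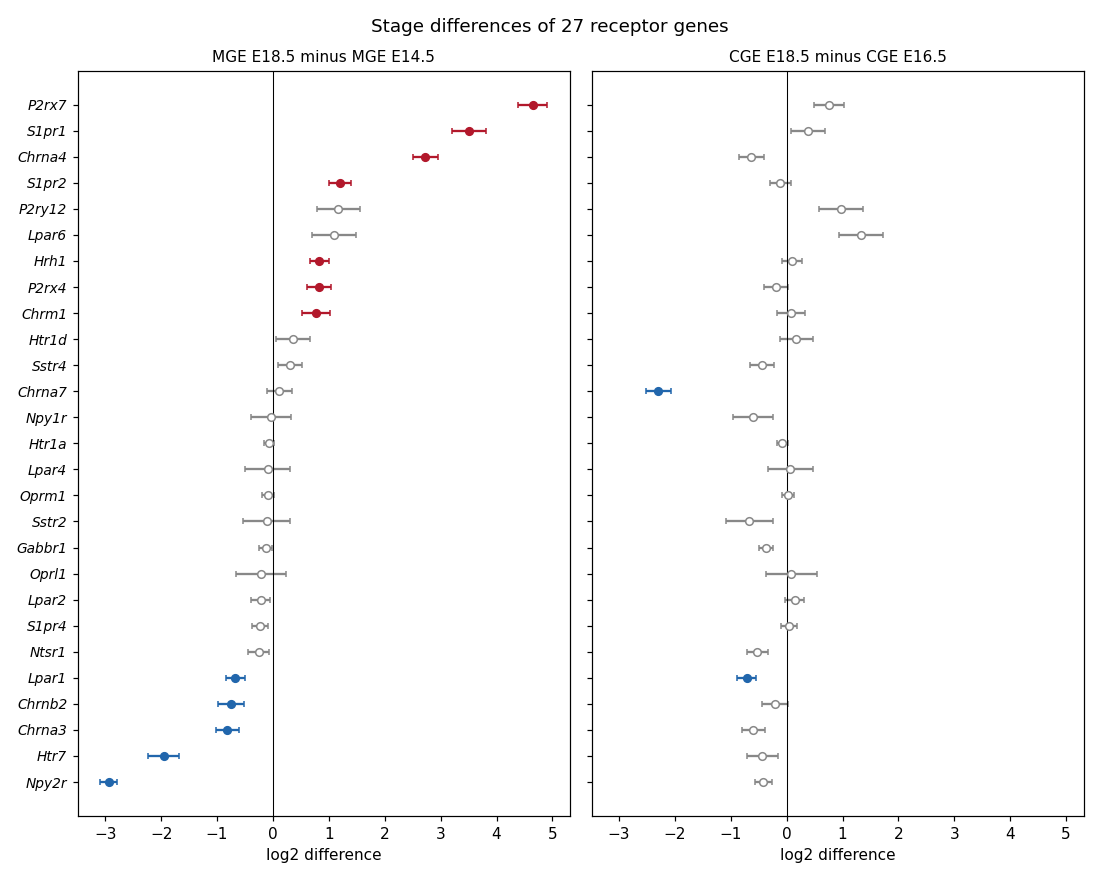
Log2 difference, E18.5 minus the earlier day, of each of the 27 receptors within MGE cells (from E14.5) and within CGE cells (from E16.5), drawn as in the plot of lineage differences. In MGE cells P2rx7 (4.64) and Npy2r (-2.94) mark the ends, and in CGE cells Chrna7 (-2.29) is the lowest.

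The 5 receptors that fell over MGE maturation were Npy2r, Htr7 and, by under 2-fold, Chrna3, Chrnb2 and Lpar1. Chrna3, the alpha subunit of ganglionic nicotinic receptors, fell by 0.82 ± 0.21 (adjusted p = 0.0158), the common beta subunit Chrnb2 by 0.75 ± 0.23 (adjusted p = 0.0369) and Lpar1, the lysophosphatidic acid receptor of dividing cortical progenitors, by 0.67 ± 0.17 (adjusted p = 0.017). Thus within the nicotinic family Chrna4 rose over MGE maturation, Chrna3 and Chrnb2 fell, and Chrna7 was not called. The calls of these 3 smaller falls were lost without single arrays, though each difference stayed negative. With any 1 MGE array left out, 486 to 713 of all genes were called lower, against 928. The Chrna3 call was lost without MGE E18.5 replicate 1 or 3 or MGE E14.5 replicate 1 or 3 (-0.77 to -0.74, adjusted p up to 0.0651), and with the mean of its probe sets (-0.47, adjusted p = 0.186). That of Chrnb2 was lost without any MGE array but E18.5 replicate 2 (-0.86 to -0.52, adjusted p up to 0.134), and that of Lpar1 without MGE E14.5 replicate 1 or 2 or MGE E18.5 replicate 1 (-0.66, -0.54 and -0.49).

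Over CGE maturation, a span of 2 days where MGE maturation spans 4, 0 receptors were called higher by limma (3 at an unadjusted p under 0.05), beside 4.07% of all genes. Chrna7 and Lpar1 were called lower (7.41%, and 7 of 27 at an unadjusted p under 0.05), beside 4.9% of all genes. Lpar1 fell by 0.71 ± 0.17 (adjusted p = 0.0267) and was thus lower at E18.5 in both lineages. Its call in CGE cells was lost without any 1 of the 3 arrays of E16.5 (-0.74 to -0.70) and without CGE E18.5 replicate 2 or 3 (-0.71 and -0.72). Of 5 markers of Cajal-Retzius cells 2 were measured. Their summed linear level was 207 to 347 units in MGE cells at E18.5, against 1804 to 2400 at E14.5. In CGE cells it was 100 to 303 at E18.5, against 1577 to 2322 at E16.5. In each maturation comparison 1 of the 2 was called lower, beside 8.17% and 4.9% of all genes. The part of these cells in the receptor differences was not tested. Lpar6, a G12/13-coupled lysophosphatidic acid receptor that lies within Rb1, had the largest increase over CGE maturation without a call, at 1.34 ± 0.40 (adjusted p = 0.0581). Over MGE maturation it differed by 1.09 ± 0.40, also without a call (adjusted p = 0.076). That MGE difference was called with array weights (adjusted p = 0.0468) and without CGE E16.5 replicate 1 (0.0496) or MGE E18.5 replicate 2 (0.0448).

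**Figure D4:**
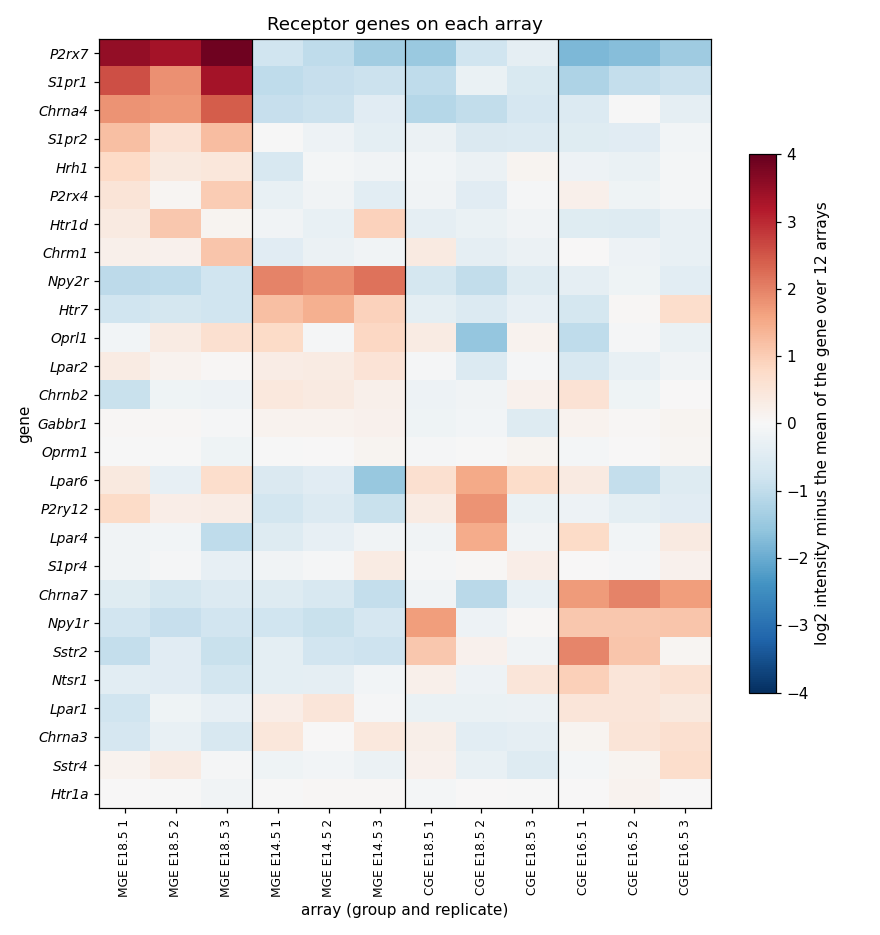
Log2 level of each receptor on each of the 12 arrays relative to that gene's mean over all arrays, with the arrays grouped as MGE E18.5, MGE E14.5, CGE E18.5 and CGE E16.5. By group mean, 8 receptors are highest in MGE cells at E18.5, 7 in MGE cells at E14.5, 4 in CGE cells at E18.5 and 8 in CGE cells at E16.5.

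Whether the lineage difference itself changed was tested in the same fit. It had become more positive for 5 receptors, beside 6.85% of all genes, and more negative for 2, beside 1.84% of all genes. P2rx7 changed by 3.89 ± 0.37 (adjusted p = 5.96e-05), Chrna4 by 3.36 ± 0.31 (adjusted p = 4.31e-05), S1pr1 by 3.12 ± 0.44 (adjusted p = 0.000855) and S1pr2 by 1.31 ± 0.28 (adjusted p = 0.0108), all 4 with higher levels in MGE cells at E18.5. Over CGE maturation these 4 differed by 0.76, -0.63, 0.38 and -0.11 in the same order, and none was called. Chrna7 changed by 2.41 ± 0.31 (adjusted p = 0.00055), with its lower level in CGE cells at E18.5. Npy2r changed by -2.52 ± 0.21 (adjusted p = 2.08e-05) and Htr7 by -1.52 ± 0.39 (adjusted p = 0.0311), both with the lower level of MGE cells at E18.5. The median change was 0.20 over the receptors and 0.02 over all genes.

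Of the 27 receptors, 17 were called in at least 1 of the 4 pairwise comparisons and 10 in none, where 36.6% of all genes were called in at least 1. Among the 10, Gabbr1, the ligand-binding subunit of the GABA-B receptor, was nearly level. It read 11.75, 11.74 and 11.66 in MGE cells at E18.5, 11.83, 11.84 and 11.88 in MGE cells at E14.5, 11.53, 11.61 and 11.18 in CGE cells at E18.5 and 11.85, 11.76 and 11.81 in CGE cells at E16.5. CGE E18.5 replicate 3 was the lowest of the 12 arrays, and the other groups lay close together. Its late lineage difference was 0.28 with a 95% interval of 0.01 to 0.54 (adjusted p = 0.126). Over CGE maturation the difference was -0.37 with an interval of -0.64 to -0.10 (adjusted p = 0.084). The latter was called only with the intensity trend (adjusted p = 0.029). Htr1a and the mu-opioid receptor Oprm1 spanned 0.10 and 0.09 between their highest and lowest group means, and S1pr4 and Sstr4 spanned 0.27 and 0.44. All 4 were dim. Htr1d spanned 0.96 and Lpar4 0.82, both with replicates that spread as widely within a group.

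Oprl1, the receptor for nociceptin, spanned 0.95 and depended on the probe set. The brightest of its 3 was not called in the late lineage comparison (0.65, adjusted p = 0.335), whereas the others were called higher in MGE cells (1.16, adjusted p = 0.0273, and 0.95, adjusted p = 0.0472). Pnoc, which encodes the nociceptin precursor, was lower in MGE cells (-2.91 early and -1.50 late). A second Lpar4 probe set was likewise called, lower in MGE cells at E18.5 (-0.84, adjusted p = 0.0264), where the first was not.

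P2ry12, the Gi-coupled ADP receptor that marks resident microglia, and Lpar6 had the widest spans of those never called, 1.34 and 1.80. P2ry12 read 5.57, 5.08 and 5.12 in MGE cells at E18.5, against 4.07, 4.26 and 3.93 in MGE cells at E14.5, and 5.15, 6.61 and 4.54 in CGE cells at E18.5, against 4.61, 4.43 and 4.36 in CGE cells at E16.5. The difference was 1.17 ± 0.39 over MGE maturation, without overlap (adjusted p = 0.0551), and 0.97 ± 0.39 over CGE maturation (adjusted p = 0.153). Some alternatives called P2ry12 higher over MGE maturation, among them the intensity trend (adjusted p = 0.0376) and array weights (adjusted p = 0.00387). CGE E18.5 replicate 2 stood above all other arrays, and the SD of that group, 1.06, was the largest of any receptor and group. Replicate 2 also had the highest Lpar6 (8.88) and Lpar4 (7.09) of all 12 arrays. Of 10 microglial markers 4 were measured, P2ry12 among them, and their summed level was 413 to 712 units in MGE cells at E18.5, 84 to 132 in MGE cells at E14.5, 435 to 887 in CGE cells at E18.5 and 145 to 264 in CGE cells at E16.5, with the highest sum in CGE E18.5 replicate 2. Of these, 3 were called higher over MGE maturation and 3 over CGE maturation, and 0 in either lineage comparison. The sorts selected fluorescent cells, and the part of microglial RNA in these receptor values was not tested.

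**Figure D5:**
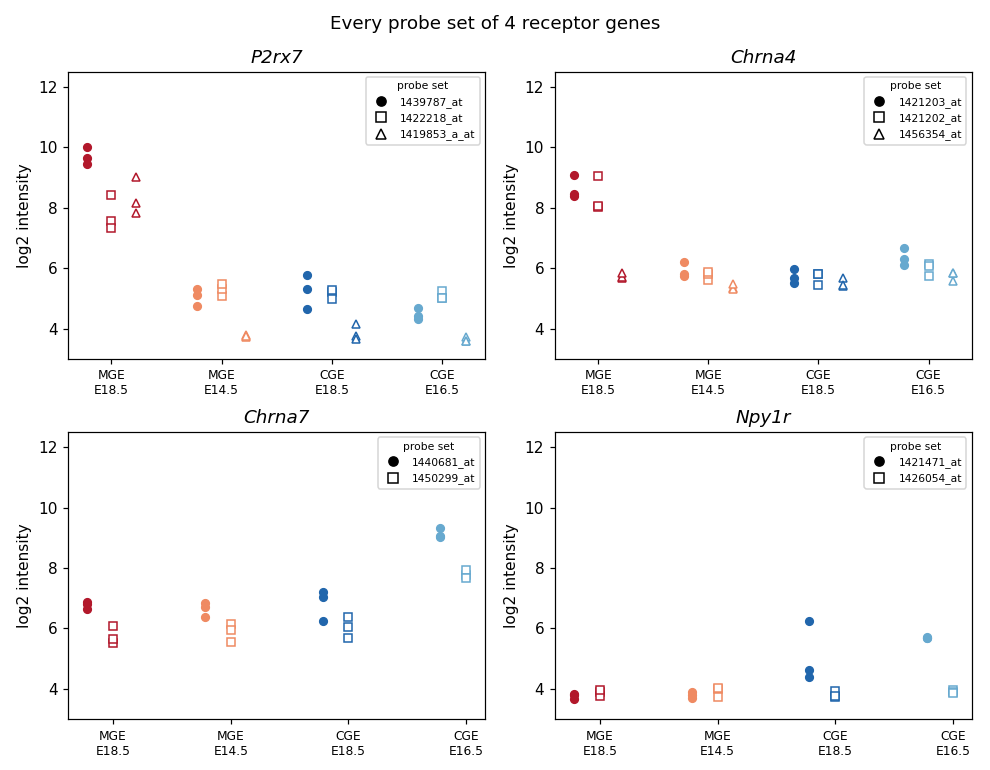
Log2 array values of every probe set of P2rx7, Chrna4, Chrna7 and Npy1r, 1 panel per gene, with the 4 groups on the horizontal axis. Each point is 1 array, its shape the probe set and its colour the group, and filled circles are the probe set used for the gene. The 3 P2rx7 probe sets all rise to MGE cells at E18.5, the 2 Chrna7 probe sets are both highest in CGE cells at E16.5, and 1 of the 2 Npy1r probe sets stays flat.

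Several probe sets read 11 of the 27 genes, and 16 had 1. When all 22339 single-symbol probe sets were tested together, P2rx7 and Chrna7 kept every call in each of their probe sets, Chrna4 in 2 of 3, and Hrh1, Chrna3, Chrnb2 and Npy1r in the brightest only. The other Hrh1 probe set differed by 0.19 in the late comparison and 0.24 over MGE maturation, and the other Chrna3 probe set by -0.13 over MGE maturation. The Chrm1 call was lost in this larger set. In the RefSeq annotation Chrna3 overlaps Chrna5, Chrnb2 overlaps Adar, P2rx4 overlaps Camkk2, P2ry12 overlaps Med12l and Sstr2 overlaps Slc39a11, and a probe set in a shared stretch could read either gene.

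The genes that make, remove and relay these signals were followed from lists. Of the 26 ligand and synthesis genes 11 were measured. In the early lineage comparison 3 were higher in MGE cells, the peptide genes Sst (3.00), Npy (2.40) and Tac1 (2.40), and 3 lower, led by Pnoc (-2.91), where 3.56% of all genes were called higher and 5.1% lower. At E18.5 0 were called higher in MGE cells (13.1% of all genes) and 4 lower (9.34%), Pnoc (-1.50), the tachykinin gene Tac2 (-0.97), the GABA-synthesis gene Gad1 (-0.79) and the sphingosine-1-phosphate exporter gene Spns2 (-0.66). Thus S1pr1 and S1pr2 were higher in MGE cells at E18.5 while Spns2 was lower. Over MGE maturation 0 were higher (12.1% of all genes) and 5 lower (8.17%), led by Sst (-2.71), Tac1 (-1.50) and Spns2 (-0.86).

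Genes for clearance of the ligands moved in the same comparisons as P2rx7 and S1pr1. Of 24 on the list 15 were measured, and 7 were higher in MGE than in CGE cells at E18.5 and 6 higher over MGE maturation, with 0 lower in either, beside 13.1% and 12.1% of all genes called higher in these 2 comparisons. Plpp3, whose enzyme dephosphorylates lysophosphatidic acid and sphingosine-1-phosphate outside the cell, was 3.84 higher in the late comparison and 4.38 over MGE maturation. Nt5e, which makes adenosine from AMP, was 2.91 and 2.63 higher in these comparisons, and the cholinesterase gene Bche 1.79 and 1.62. The list's median was 0.60 late and 0.59 over MGE maturation, beside -0.02 and -0.05 over all genes. In the early comparison and over CGE maturation 0 of the 15 were called. The markers of oligodendrocyte precursors given above moved in the same 2 comparisons.

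Of the 46 genes for G proteins and their regulators 38 were measured. The late lineage comparison called 6 higher and 7 lower in MGE cells, beside 13.1% and 9.34% of all genes, with the gamma subunit Gng12 at 4.99 and its relative Gng4 at -3.23, and with the GTPase activators Rgs8 at -2.17 and Rgs16 at -1.40. The early comparison called 2 higher and 6 lower, beside 3.56% and 5.1% of all genes, led by Rgs16 (-2.69) and Gng4 (-2.28). Over MGE maturation 9 were higher and 2 lower, beside 12.1% and 8.17% of all genes, led by Gng12 (4.19) and Rgs5 (2.59), the last of which is also on the list of vascular markers. Of the 43 effector and auxiliary subunit genes 33 were measured, and the late comparison called 6 higher and 5 lower, against the same shares of all genes, led by the adenylyl cyclase gene Adcy1 (1.57) and the GABA-B auxiliary subunit gene Kctd12b (1.32). In the early comparison 4 were higher and 5 lower, with the phosphodiesterase gene Pde1c at -2.75 and Kctd8, another GABA-B auxiliary subunit gene, at 1.93. Over MGE maturation 4 were higher and 5 lower, led by the phosphodiesterase genes Pde7b (3.26) and Pde4b (1.94). Kctd8 fell by 1.76 in this comparison, while Gabbr1 was called in no comparison. The medians of both lists lay within -0.08 to 0.14, beside -0.06 to 0.02 over all genes.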

How the data were processed

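cDNA of the 12 samples was made with NuGEN Ovation Pico amplification and hybridised to Affymetrix Mouse430_2 arrays. The log2 values deposited by the authors had been background-corrected and normalised in Bioconductor, according to the methods. MAS5 is named, with no version, in the submitters' processing notes, so the exact algorithm is not settled. The 12 columns were matched to samples by the labels, and values ran from 3.23 to 14.97 with array medians of 7.75 to 7.81. Arrays have no read depth, and their number limits the precision.

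Of 27060 probe sets in the deposited table other than 34 controls, the platform annotation gave 1 gene symbol to 22339, several to 571 and none to 4150. In the gene lists, a gene counts as measured if it had a single-symbol probe set in this table. Entrez identifiers of 22269 were found in a RefSeq table of GRCm38.p6, which changed 0 symbols. Each of the 11358 genes was read by its single-symbol probe set with the highest mean over 12 arrays, with no filter. The model was limma's (version 3.58.1, R 4.3.3), by lmFit, contrasts.fit and eBayes (1 mean per group, 8 residual and 3.47 prior degrees of freedom), two-sided, with Benjamini-Hochberg adjustment over all 11358 genes within a comparison. Calls were made below an adjusted p of 0.05. Other probe sets were tested among all 22339. The fit was tested on simulated data.

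The receptors and all gene lists were chosen with earlier results of these data known. Receptors called in any comparison are named with their difference, and array values are given for those called at 2-fold or more. Array values of Gabbr1 and P2ry12 and the other probe sets named were added after their values were seen. For each gene list and comparison described, up to 4 called genes are named, in order of the size of their differences. The methods call the 3 replicates independent but do not say how pools were divided, so p-values measure the spread between these arrays. Alternatives were a low-value filter, the mean of all probe sets, quantile or median scaling, an intensity trend, array weights, a replicate block, a fit on the compared groups only, averaging the closest replicate pair and leaving out each array.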

Additional observations from a re-analysis of the deposited data

Results flagged for a closer look

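For 7 receptors the MGE minus CGE difference at E18.5 differed from that between MGE cells at E14.5 and CGE cells at E16.5, by the test of the change itself (limma, adjusted p under 0.05). The change was positive for P2rx7 (3.89 ± 0.37), Chrna4 (3.36 ± 0.31), S1pr1 (3.12 ± 0.44), Chrna7 (2.41 ± 0.31) and S1pr2 (1.31 ± 0.28). It was negative for Npy2r (-2.52 ± 0.21) and Htr7 (-1.52 ± 0.39), of which the Htr7 change was lost in 9 of 19 alternatives. The lineage difference of P2rx7 was 4.46 late and 0.57 early, that of Chrna7 -0.07 late and -2.48 early, and that of Npy2r -0.21 late and 2.31 early. All 10 oligodendrocyte precursor markers also had a positive change (median 3.76), and their part in the receptor changes was not tested. Origin, reporter line and, in the early pair, age differ together, so that their shares in these changes cannot be told apart. Single arrays far from the others could not be searched for in groups of 3.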

How the results depend on the processing

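Across 21 alternatives, 22 of the 36 calls of receptors were kept in each alternative that tested the gene, 14 were lost in at least 1, and 0 reversed. Calls kept throughout include those of P2rx7, S1pr1, S1pr2, Chrna4, Chrna7 and Npy2r. With the filter on low values, which left 8 of the 27 receptors, the counts called higher and lower were 0 and 2 in the early lineage comparison, 2 and 0 in the late one, 2 and 1 over MGE maturation, and 3 and 0 for the change of the lineage difference, with 1 lower over CGE maturation. Of the 8791 genes left by it, 365 and 518, 1142 and 866, 1005 and 859, and 593 and 165 were called in this order. Over CGE maturation 562 of them were lower. P2rx7 and Chrna4 passed that filter only on the 3 MGE arrays of E18.5, Sstr2 on 3 CGE arrays and Chrna7 on 4, so the calls kept under it are no support. When only the compared groups were fitted, 1 was lower in the late comparison, Sstr2 (adjusted p = 0.0488), while Npy1r (0.0913) and Ntsr1 (0.054) lost their calls, and 1 over CGE maturation, Chrna7. Over all genes, that fit called 49 higher and 55 lower over CGE maturation, against 462 and 556, and 688 lower in the late comparison, against 1061. It also lost P2rx4 late, Htr7 and Sstr2 early, Chrm1 over MGE maturation (0.0655) and Lpar1 in both maturations. Averaging MGE E14.5 replicates 1 and 2 left 3 lower over MGE maturation and 1 for the change (497 and 115 of all genes, against 928 and 209). It also lost the early calls of Htr7 and Sstr2 and the Chrm1 call over MGE maturation. Of all genes it called 246 higher and 340 lower early. The intensity trend called 1 higher over CGE maturation, Lpar6 (adjusted p = 0.0401), and Gabbr1 lower (-0.37, adjusted p = 0.029). Over all genes it called 538 higher and 670 lower there. Array weights left 1 lower over CGE maturation, where 278 of all genes were lower. They lost the late calls of Hrh1 and P2rx4. In the early comparison they called P2rx7 higher (adjusted p = 0.0266) and Chrna4 lower (-0.63, adjusted p = 0.03). Of all genes they called 862 higher and 1090 lower early, against 404 and 579. With each array left out in turn, the counts ranged from 1 to 3 higher and 3 to 4 lower in the early comparison, 4 to 7 and 0 to 3 in the late one, 5 to 8 and 2 to 5 over MGE maturation, 0 to 1 and 1 to 4 over CGE maturation, and 5 to 6 and 1 to 2 for the change. Over all genes these counts ranged from 229 to 459 and 335 to 642 early and from 1126 to 1537 and 725 to 1106 late. Over MGE maturation they ranged from 970 to 1474 and 486 to 1036, and over CGE maturation from 138 to 547 and 193 to 731. For the change they ranged from 583 to 859 and 116 to 268. The change of Htr7 was lost without 8 of the 12 arrays (-1.55 to -1.40, adjusted p up to 0.085), all but MGE E14.5 replicate 3, CGE E16.5 replicates 1 and 3 and CGE E18.5 replicate 2. The mean of all probe sets of a gene gave Npy1r differences of -0.94 early and -0.62 late, Hrh1 differences of 0.41 late and 0.54 over MGE maturation, and a Chrna3 difference of -0.47 over MGE maturation, which lost its call (adjusted p = 0.186). Quantile normalisation and median centring lost the Chrm1 call (adjusted p = 0.0634 and 0.0501). Dim signal limits what the 19 receptors under the filter can show.

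Deviations of arrays with the same replicate number correlated with r = -0.13 to 0.24 over 18 pairs, 4 above 0.1. Arrays with different numbers ranged from -0.20 to 0.26. With 3 arrays per group this check cannot decide whether the numbers pair samples. A replicate block gave 6 higher and 4 lower over MGE maturation, where Chrm1 and Chrnb2 lost their calls (adjusted p = 0.0642 and 0.0614), and 6 higher and 3 lower in the late lineage comparison. The other counts were 3 and 4 early, 0 and 2 over CGE maturation and 5 and 2 for the change. Over all genes the block called 1323 and 850 over MGE maturation, 1466 and 996 late, 382 and 548 early, 405 and 500 over CGE maturation and 782 and 218 for the change.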
